A study of Homo sapiens with 8 samples.

Results

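The genes described here are the 3 D-type cyclins (CCND1, CCND2 and CCND3), their kinases CDK4 and CDK6, and 5 inhibitors of cyclin-dependent kinases, namely CDKN1A, CDKN1B, CDKN2A, CDKN2B and CDKN2C. They were chosen by name, as the rows of the expression tables whose gene field holds the symbol, and each of the 10 genes had 1 row among 48405. Polyadenylated RNA was sequenced from HCC827 and HCC4006, human lung adenocarcinoma lines with activating EGFR mutations. The 4 groups, with 2 libraries each and 8 in all, were HCC827 resistant to the EGFR inhibitor gefitinib (Gef), HCC827 passage controls carried in the solvent DMSO, HCC4006 Gef and HCC4006 DMSO. Resistant populations were those that could be kept in RPMI-1640 medium with serum and 3 µM gefitinib, and the labels speak of populations, not of clones. Effects of the drug itself and of resistance cannot be told apart, because the resistant cultures are the ones grown in it. The sources do not tell whether libraries A and B of a group, as the tables letter them, came from separate cultures, so each p-value below measures the spread between these libraries, which may be technical.

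Cyclin D binds CDK4 or CDK6, and the complex phosphorylates the retinoblastoma protein RB1, which then releases E2F factors and lets genes of S phase be transcribed. Growth factor signalling, that of EGFR included, raises cyclin D in many epithelial cells, so the complex links receptor activity to the decision to divide. The INK4 inhibitors (p16INK4a from CDKN2A, p15INK4b from CDKN2B and p18INK4c from CDKN2C) bind CDK4 and CDK6 and keep cyclin D away. The CIP/KIP inhibitors (p21 from CDKN1A and p27 from CDKN1B) bind cyclin and kinase together and block CDK2 above all. CDKN2A also encodes ARF, which binds and inhibits MDM2, from a first exon and a start of its own.

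The windows upstream of 4 starts are printed because the values of their genes differ between the tables of the 2 lines. CDKN2A and CDKN2B were above 0 in every HCC827 library and listed at 0 in every HCC4006 library, and CDK4 was the most abundant member in HCC827. Each window is the 250 bases before an annotated start, 5′ to 3′ on the gene's own strand, from RefSeq on GRCh38.p14, a later build than the hg19 of the tables. Capitals mark a GC box (GGGCGG) or an E-box (CACGTG) on either strand.
CDKN2A, start of the p16INK4a transcript, chr9:21974858-21975107, minus strand: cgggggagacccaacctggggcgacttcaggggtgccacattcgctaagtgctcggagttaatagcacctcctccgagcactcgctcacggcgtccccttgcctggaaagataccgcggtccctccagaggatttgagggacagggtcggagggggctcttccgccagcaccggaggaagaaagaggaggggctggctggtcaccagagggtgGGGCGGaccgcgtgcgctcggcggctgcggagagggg
CDKN2A, start of the ARF transcript, chr9:21995325-21995574, minus strand: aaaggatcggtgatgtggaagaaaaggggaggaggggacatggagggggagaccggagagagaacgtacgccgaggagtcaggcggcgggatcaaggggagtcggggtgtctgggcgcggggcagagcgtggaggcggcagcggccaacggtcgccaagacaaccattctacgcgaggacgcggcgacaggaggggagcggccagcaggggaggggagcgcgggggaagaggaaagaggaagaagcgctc
CDKN2B, chr9:22009306-22009555, minus strand: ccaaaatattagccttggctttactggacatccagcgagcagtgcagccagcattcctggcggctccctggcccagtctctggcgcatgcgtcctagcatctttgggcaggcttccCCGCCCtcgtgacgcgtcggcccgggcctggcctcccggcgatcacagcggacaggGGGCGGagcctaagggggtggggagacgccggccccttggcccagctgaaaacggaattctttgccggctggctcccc
CDK4, chr12:57752311-57752560, minus strand: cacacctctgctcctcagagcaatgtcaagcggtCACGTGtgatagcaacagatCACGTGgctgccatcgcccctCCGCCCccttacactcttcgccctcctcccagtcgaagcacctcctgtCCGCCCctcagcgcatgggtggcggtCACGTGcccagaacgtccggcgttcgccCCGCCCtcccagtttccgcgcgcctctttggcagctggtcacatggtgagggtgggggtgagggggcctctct
The p16INK4a window held 1 GC box and 20 CG dinucleotides, and the ARF window held no GC box and 24 CG dinucleotides. The CDKN2B window held 2 GC boxes and 18 CG dinucleotides. The CDK4 window held 3 GC boxes, 3 E-boxes and 19 CG dinucleotides. Over 35116 such windows of all genes, the median was 11 CG dinucleotides, 42.6% held a GC box and 6.34% held an E-box. Neither an E2F-type site (TTTCGCG, either strand, in 1.1% of all windows) nor a TATA box (TATAAA, either strand, in 10.7%) was found in any of the 14 windows of the 8 members that the table covered. These are matches of letters and say nothing of what bound there.

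Expression is given as FPKM, the fragments of a transcript divided by its length and by the number of mapped fragments, so levels of different genes can be set side by side. The lines were deposited in separate tables, and a level set across lines depends on each table's scale. As a measure free of that scale, the percentile of a gene among the rows above 0 in its library is given as well. Between 17406 and 19333 rows were above 0 in a library, with a median of 53.6 to 59.0 FPKM, and read depth is unknown. A value of exactly 0 may be a failed estimate here, since genes that cycling cells use were listed at 0 in whole groups (RB1 and CDC45 in both DMSO groups). Such a gene is therefore only said to be listed at 0.

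Libraries A and B of HCC827 Gef and of HCC4006 DMSO stood apart in genes of the cell cycle, and also over the whole table. Over the rows above 0, the median absolute log2 ratio of A to B was 0.572 in HCC827 Gef and 0.5996 in HCC4006 DMSO. It was 0.39996 in HCC827 DMSO and 0.237 in HCC4006 Gef. The share of all rows higher in library B is not given. The 16 E2F target genes of S phase entry (among them MCM2 to MCM7, CDC6, CDT1, CDC45, ORC1, PCNA, RRM2, TK1, TYMS and MYBL2) summed to 4727 and 11999 FPKM in HCC827 Gef libraries A and B, against 12403 and 12308 FPKM in HCC827 DMSO. They summed to 8605 and 8320 FPKM in HCC4006 Gef, against 3348 and 14472 FPKM in HCC4006 DMSO. In HCC827 Gef, 16 of 16 targets were higher in library B than in A, with a median log2 ratio of 1.31. In HCC4006 DMSO, 15 of the 15 targets above 0 were higher in library B, with a median log2 ratio of 2.21. In HCC827 DMSO 7 of 15, and in HCC4006 Gef 4 of 16, were higher in B. E2F1 itself had 92.6 and 220 FPKM in HCC827 Gef, 122 and 76.5 in HCC827 DMSO, 189.6 and 131 in HCC4006 Gef, and 11.9 and 167 in HCC4006 DMSO. Among the members, library B of HCC4006 DMSO held 3.79 times the CCND1, 3.93 times the CCND3 and 2.72 times the CDKN2C of library A, while CDK4 was at 0.974 times. Library B of HCC827 Gef held 3.79 times the CDKN2C and 1.74 times the CDK4 of library A, with CCND1 at 0.667 times. The part of this difference between libraries in the results below was not tested.

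**Figure D1:**
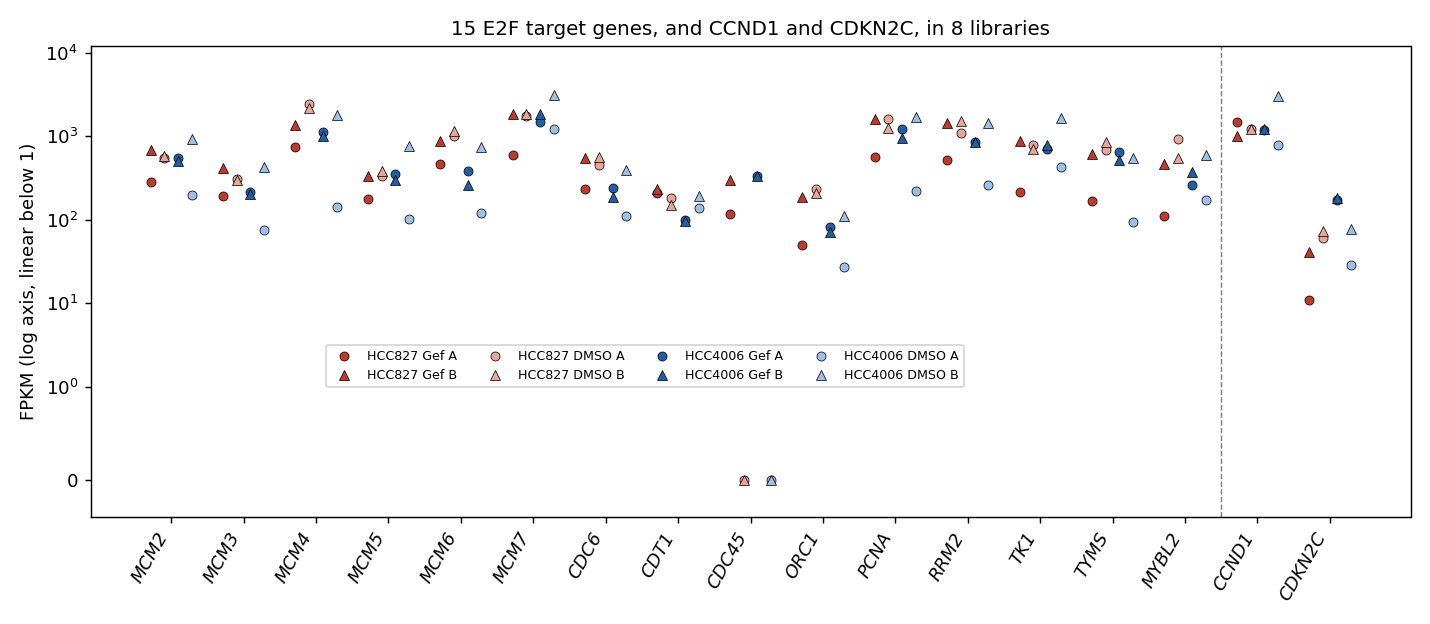
FPKM (log axis, linear below 1) of 15 of the 16 E2F target genes and, right of the dashed line, of CCND1 and CDKN2C, with circles for library A and triangles for library B of each group. The light blue symbols of HCC4006 DMSO lie far apart for nearly every target, B above A, and the dark blue symbols of HCC4006 Gef lie close together.

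Each line was tested alone with limma on log2(FPKM + 0.5), resistant minus DMSO, and a row was called at a Benjamini-Hochberg adjusted p below 0.05 over all rows tested. In HCC827, 9 of the 10 members passed the filter on low values (a mean of at least 0.5 FPKM) and 1, CCND3, was called, beside 6.8% of all 19324 rows tested (5.13% higher and 1.67% lower in Gef). Both Gef libraries lay above both DMSO libraries for 3 members and below them for 3, beside 24.3% and 24.7% of all rows and 48.9% in either direction. In HCC4006, 7 members passed and 0 were called, beside 9.36% of all 19881 rows (6.37% higher and 2.98% lower in Gef), with 1 member at an unadjusted p below 0.05. There, 1 member was higher and 2 were lower in Gef without overlap, beside 26.6% and 26.5% of all rows and 53.1% in either direction. The difference between the lines, taken as the HCC827 change less that of HCC4006, was called for 1 member, CCND3, beside 12.1% of all 20685 rows (6.27% positive and 5.82% negative). The median change of the members that passed was 0.00 in HCC827 and −0.34 in HCC4006, beside −0.04 and −0.01 over all rows.

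**Figure D2:**
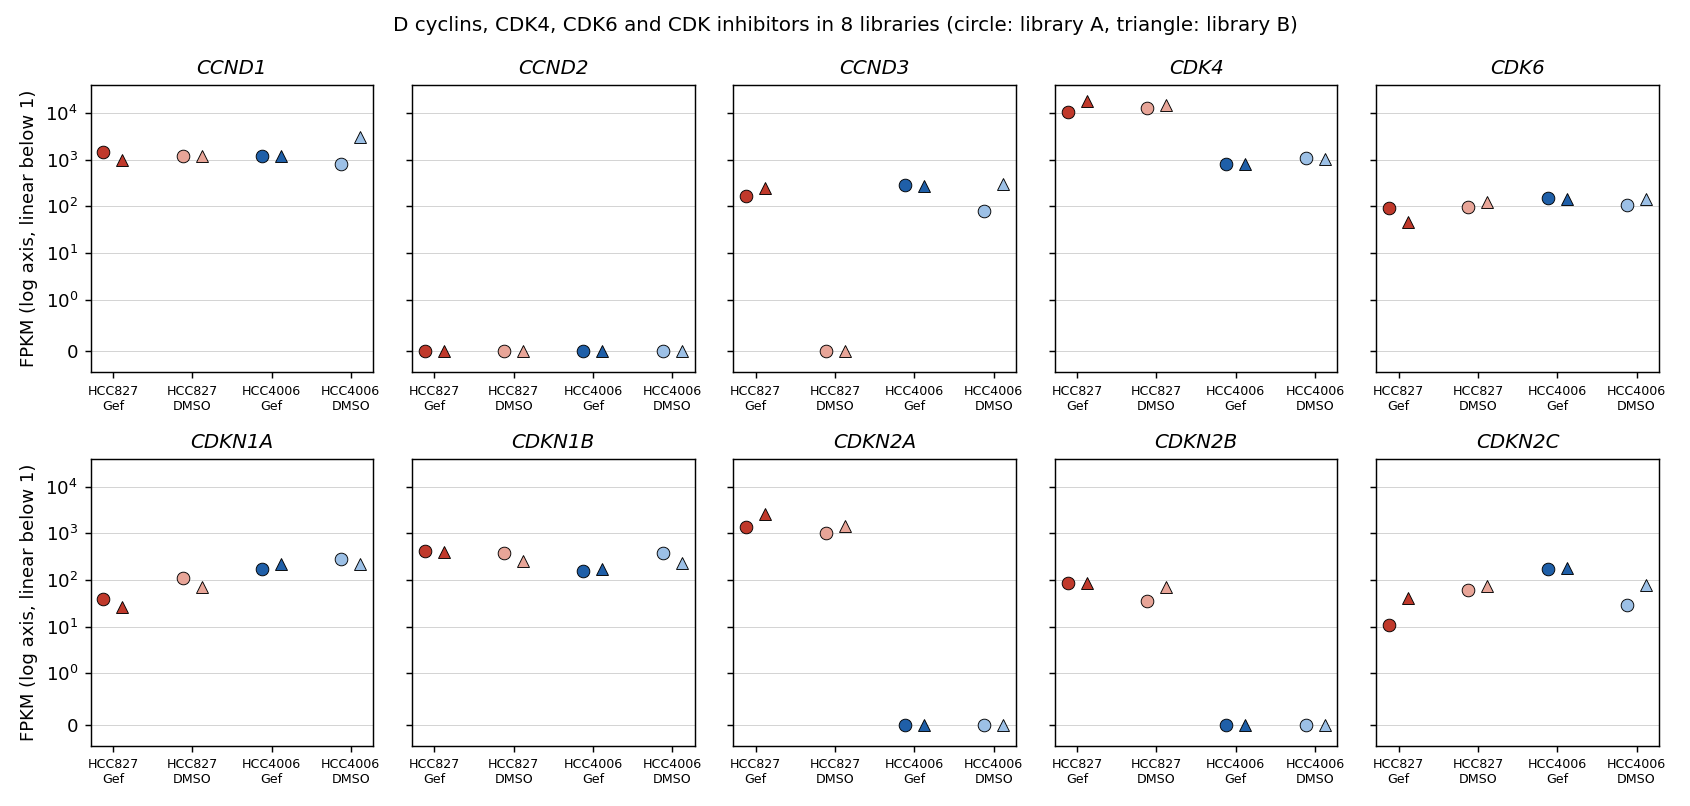
FPKM (log axis, linear below 1) of the 10 members in each library, with circles for library A and triangles for library B. CDK4 lies between 10270.5 and 17831.5 FPKM in the 4 HCC827 libraries and between 798 and 1081 FPKM in the 4 HCC4006 libraries, and CDKN2A and CDKN2B lie at 0 in HCC4006.

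CCND1, the cyclin D that growth factor signals typically induce, was the main D cyclin in both lines. It had 1486 and 991 FPKM in HCC827 Gef, against 1207 and 1218 FPKM in HCC827 DMSO, and 1189.6 and 1219 FPKM in HCC4006 Gef, against 788 and 2986 FPKM in HCC4006 DMSO. The Gef values lay on both sides of the DMSO values in HCC827 and between them in HCC4006, and in all 8 libraries the gene stood between the 93.3 and 98.5 percentile. The log2 change was 0.00 in HCC827 (SE 0.33, 95% interval −0.87 to 0.87, limma adjusted p = 0.999). It was −0.35 in HCC4006 (SE 0.72, 95% interval −2.397 to 1.70, adjusted p = 0.805). HCC4006 DMSO decided that value: the change was −1.31 without its library A (adjusted p = 0.042) and 0.61 without its library B (adjusted p = 0.0638). A lone library is then assumed to vary like the other group. CCND1 lies at chr11:69455872-69490165 (hg19), in 11q13. Of the 10 genes listed as its neighbours there, CTTN, an actin-binding protein, had 1955 and 2329 FPKM in HCC827 Gef, 1373 and 1649 in HCC827 DMSO, 2755 and 2736 in HCC4006 Gef, and 3179 and 2932 in HCC4006 DMSO. FGF3 and FGF4, growth factor genes next to CCND1, were listed at 0 throughout. In HCC827, 0 of the 6 neighbours that passed the filter were called by limma, with 0 at an unadjusted p below 0.05 and a median log2 change of 0.22. In HCC4006, 1 of 8 was called, with a median of −0.41. It was ANO1, a chloride channel whose row is joined with another gene. That row was listed at 0 in both HCC4006 Gef libraries, against 17.8 and 11.9 FPKM in HCC4006 DMSO.

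CCND2 (chr12:4382901-4414521) was listed at 0 in all 8 libraries, as were 25961 of the 48405 rows. CCND3 (chr6:41902670-42018095), the D cyclin of many lymphoid and epithelial cells, had 168 and 242 FPKM in HCC827 Gef and was listed at 0 in both HCC827 DMSO libraries. It had 287 and 266 FPKM in HCC4006 Gef, against 78.2 and 307 FPKM in HCC4006 DMSO. In HCC827 it was called (limma adjusted p = 0.000582), and no fold is given because the DMSO group was listed at 0. The pattern was shared by other rows: 399 rows were listed at 0 in both HCC827 DMSO libraries with at least 100 FPKM in both Gef libraries, and 153 of these were above 0 in the 6 other libraries. Without DMSO library A or B, the adjusted p of CCND3 was 0.0739 or 0.0609. In HCC4006 the groups overlapped and the change was 0.83 (SE 0.74, 95% interval −1.27 to 2.93, adjusted p = 0.55). It was −0.15 without DMSO library A (adjusted p = 0.426) and 1.81 without DMSO library B (adjusted p = 0.0314). The difference between the lines was called (adjusted p = 0.00201), and it rests on the same zeros. Of the D cyclin sum, CCND1 made up 89.8% and 80.4% in HCC827 Gef and 100% in both HCC827 DMSO libraries, where CCND3 is listed at 0. In HCC4006 it made up 80.6% and 82.1% in Gef, against 91.0% and 90.7% in DMSO.

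CDK4 (chr12:58142004-58146164) was among the most abundant transcripts of HCC827. It had 10270.5 and 17831.5 FPKM in HCC827 Gef, against 12607 and 15133 FPKM in HCC827 DMSO. It had 813 and 798 FPKM in HCC4006 Gef, against 1081 and 1053 FPKM in HCC4006 DMSO. Within HCC827 the groups overlapped, and within HCC4006 both Gef libraries were lower. Every HCC827 library was above every HCC4006 library, at the 99.8 to 99.9 percentile against the 93.7 to 95.3 percentile. No test was made across the tables. The log2 change was −0.03 in HCC827 (SE 0.42, 95% interval −1.15 to 1.09, limma adjusted p = 0.983), and it was 0.085 after scaling the libraries to a common median. In HCC4006 it was −0.41 (SE 0.17, 95% interval −0.90 to 0.09, adjusted p = 0.291). The difference of the changes was 0.38 (adjusted p = 0.636), and it was −0.20 with quantile normalization and −0.022 without HCC827 Gef library B.

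Several genes beside CDK4 were also far higher in HCC827 than in HCC4006. These neighbours were looked at after the CDK4 levels were known, as the rows within 250 kb whose values were above 0 in all 8 libraries, 16 in all with CDK4. PIP4K2C, a phosphoinositide kinase, had 3990 and 3248 FPKM in HCC827 Gef and 5203 and 6568 in HCC827 DMSO. In HCC4006 it had 97.6 and 89.6 FPKM in Gef and 180.2 and 252 in DMSO. OS9, which acts in degradation of misfolded proteins of the endoplasmic reticulum, had 8668 and 6720 FPKM in HCC827 Gef and 16957 and 8035 in HCC827 DMSO. In HCC4006 it had 380.5 and 435 FPKM in Gef and 1468 and 554 in DMSO. TSPAN31, a tetraspanin gene next to CDK4, had 2365 and 1654 FPKM in HCC827 Gef and 759 and 713 in HCC827 DMSO. In HCC4006 it had 68.8 and 54.0 FPKM in Gef and 179 and 76.8 in DMSO. The ratio of the mean of all HCC827 libraries to that of all HCC4006 libraries was 30.7 for PIP4K2C, 14.9 for CDK4, 14.5 for TSPAN31 and 14.2 for OS9. These were the 4 of 16 rows with a ratio above 4, against 400 of 14804 rows (2.7%) over the whole table. CDK4 counts among them although the window was drawn around it with its levels known, so these shares are not like for like. The median ratio was 1.75 near CDK4, with CDK4 included, and 0.987 over the table. In the table, 57 rows had a higher ratio than CDK4. Other rows nearby had lower ratios: 3.19 for DTX3, 3.12 for AGAP2, 2.71 for the joined row of FAM119B and TSFM, and 1.17 for METTL1, a tRNA methyltransferase gene. Ratios below 1 were those of DDIT3 (0.141), MBD6 (0.507) and CTDSP2, a phosphatase gene (0.907). The ratio of DDIT3 rests on HCC4006 DMSO library A, at 4773 FPKM. DDIT3 had 80.1 FPKM in library B of that group and 94.9 and 76.0 in HCC4006 Gef. In HCC827 it had 370 and 205 FPKM in Gef and 47.0 and 86.2 in DMSO. In 7 of the 16 rows, CDK4 included, every HCC827 library lay above every HCC4006 library. The share of such rows over the whole table was not counted. RNA levels hold no measure of gene copy number, which was not tested.

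**Figure D3:**
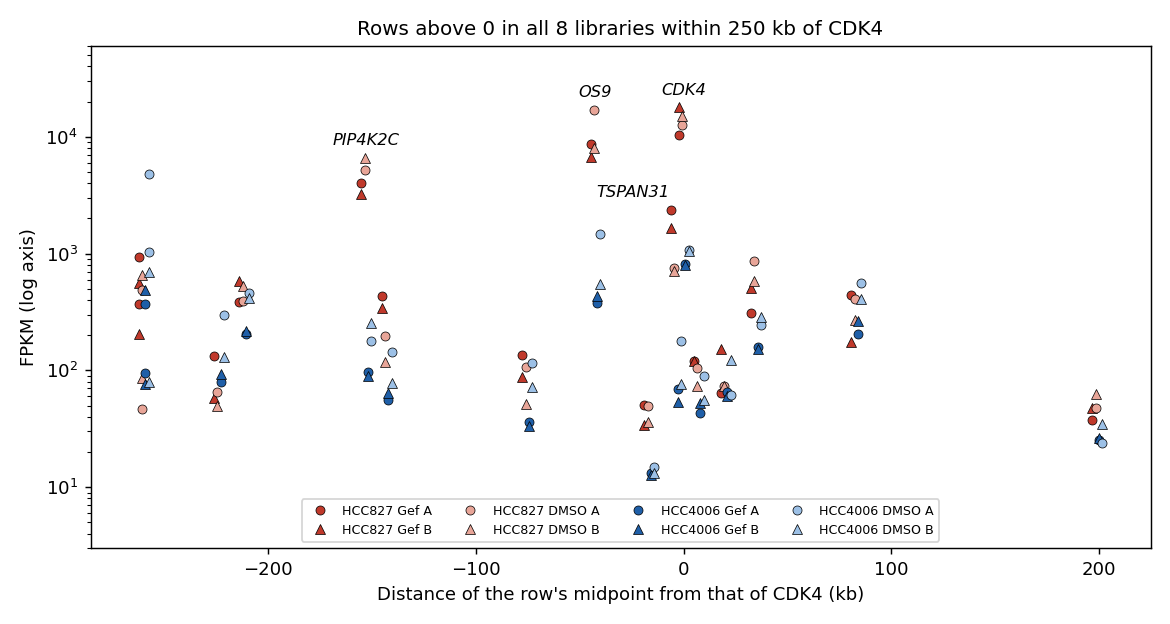
FPKM (log axis) of the 16 rows near CDK4 in each library, against the distance in kb from the midpoint of CDK4 to that of the row. Red symbols (HCC827) of CDK4, TSPAN31, OS9 and PIP4K2C lie well above their blue symbols (HCC4006), while the 2 colours mix in most of the other rows.

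CDK6 (chr7:92234234-92546501), the second kinase of cyclin D, was far lower than CDK4 in both lines. It had 92.3 and 44.9 FPKM in HCC827 Gef, against 98.6 and 122 FPKM in HCC827 DMSO, and 153 and 142 FPKM in HCC4006 Gef, against 108 and 142 FPKM in HCC4006 DMSO. Both Gef libraries were lower in HCC827, with a log2 change of −0.77 (SE 0.45, 95% interval −1.95 to 0.42, limma adjusted p = 0.455). In HCC4006 the groups overlapped, with a change of 0.25 (SE 0.24, 95% interval −0.42 to 0.92, adjusted p = 0.57). The difference of the changes was −1.02 (adjusted p = 0.307). CDK4 exceeded CDK6 by 111 and 398 times in HCC827 Gef, against 128 and 124 times in HCC827 DMSO. In HCC4006 the ratio was 5.32 and 5.63 in Gef, against 10.0 and 7.43 in DMSO, so that CDK6 held a larger share of the kinase transcripts in both HCC4006 Gef libraries.

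CDKN2A and CDKN2B were above 0 in HCC827 alone, but as for other genes a listed 0 may be a failed estimate. CDKN2A had 1389 and 2652 FPKM in HCC827 Gef, against 998 and 1423 FPKM in HCC827 DMSO, and was listed at 0 in all 4 HCC4006 libraries. CDKN2B had 84.9 and 87.7 FPKM in HCC827 Gef, against 35.9 and 71.8 FPKM in HCC827 DMSO, and was likewise listed at 0 in all 4 HCC4006 libraries. In HCC827, CDKN2A stood between the 94.6 and 98.0 percentile. Its Gef and DMSO values overlapped, with a log2 change of 0.69 (SE 0.44, 95% interval −0.49 to 1.86, limma adjusted p = 0.496). Both CDKN2B libraries of HCC827 Gef lay above those of DMSO, with a change of 0.76 (SE 0.43, 95% interval −0.38 to 1.90, adjusted p = 0.441). The p16INK4a and ARF transcripts, whose starts are printed above, share the CDKN2A row and cannot be told apart in these values.

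The tables give CDKN2A and CDKN2B the same locus, chr9:21802634-22121096, together with 5 other rows, and the kit does not mark strand. On that locus the joined row of MTAP, an enzyme of methionine salvage, and the antisense transcript CDKN2B-AS1 had 393 and 568 FPKM in HCC827 Gef and 511 and 459 in HCC827 DMSO. In HCC4006 the same row had 88.4 and 59.9 FPKM in Gef and 111 and 107 in DMSO. It was thus lower than in HCC827 but above 0 in every HCC4006 library, as was UBA52P6, a pseudogene row with 101 and 90.7 FPKM in HCC4006 Gef and 122 and 216 FPKM in HCC4006 DMSO. The 3 remaining rows were listed at 0 in all 8 libraries. None of the 8 rows found for 9 listed genes of 9p21 was called in either line by limma, including KLHL9, FOCAD, DMRTA1 and ELAVL2, and each of these 4 was above 0 in all 8 libraries. Of the 5 rows that passed the filter, 0 in HCC827 and 3 in HCC4006 were at an unadjusted p below 0.05, with median log2 changes of −0.04 and −0.58. Across the table, 67 rows were listed at 0 in all 4 HCC4006 libraries with at least 30 FPKM in all 4 HCC827 libraries, and 87 rows had the reverse pattern. With at least 900 FPKM in all 4 HCC827 libraries there were 4 such rows, CDKN2A included.

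CDKN2C (chr1:51426416-51440305), the remaining INK4 gene, took opposite directions in the 2 lines without passing the adjusted threshold in either. It had 10.9 and 41.4 FPKM in HCC827 Gef, against 60.1 and 72.9 FPKM in HCC827 DMSO. It had 171 and 182 FPKM in HCC4006 Gef, against 28.4 and 77.4 FPKM in HCC4006 DMSO. Both Gef libraries were lower in HCC827 and higher in HCC4006, with no overlap in either line. The log2 change was −1.61 in HCC827 (SE 0.69, 95% interval −3.44 to 0.22, limma adjusted p = 0.329). That value was −0.67 without Gef library A (adjusted p = 0.317) and −2.54 without Gef library B (adjusted p = 0.131). The change was 1.90 in HCC4006, a fold of 3.73 (SE 0.55, 95% interval 0.32 to 3.47, adjusted p = 0.159). The difference of the changes was −3.50 (SE 1.001, 95% interval −5.95 to −1.06, adjusted p = 0.0823). Its lower library in HCC827 Gef and in HCC4006 DMSO was the one with the lower E2F target sum, and whether the 2 are linked was not tested. Without HCC4006 DMSO library B the change in HCC4006 was 2.61 (adjusted p = 0.0216), and without library A it was 1.18 (adjusted p = 0.0591). Without HCC827 Gef library B the difference was −4.44 (adjusted p = 0.0449), and without library A it was −2.57 (adjusted p = 0.133).

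Of the INK4 sum in HCC827, CDKN2A made up 93.5% and 95.4% in Gef, against 91.2% and 90.8% in DMSO. In HCC4006 the INK4 sum consisted of CDKN2C, since CDKN2A and CDKN2B were listed at 0, which may be a failed estimate. Set against the sum of CDK4 and CDK6, the INK4 transcripts amounted to 14.3% and 15.6% in HCC827 Gef, against 8.61% and 10.3% in HCC827 DMSO. They amounted to 17.7% and 19.4% in HCC4006 Gef, against 2.39% and 6.48% in HCC4006 DMSO. In both lines each Gef library was above each DMSO library. Of all single rows, 24.3% in HCC827 and 26.6% in HCC4006 were higher in Gef without overlap. In HCC827 the INK4 sum itself overlapped, at 1485 and 2781 FPKM in Gef against 1094 and 1567 FPKM in DMSO, and library A of Gef had the lowest kinase sum of the line. With 2 libraries a group, an exact permutation test cannot go below p = 0.333, so none is given for these ratios.

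CDKN1A (chr6:36645613-36655116), which DNA damage and several other signals induce, had 39.3 and 26.4 FPKM in HCC827 Gef, against 112 and 70.8 FPKM in HCC827 DMSO. It had 173 and 225 FPKM in HCC4006 Gef, against 289 and 217 FPKM in HCC4006 DMSO. Both Gef libraries were lower in HCC827 and the groups overlapped in HCC4006. The log2 change in HCC827 was −1.45, a fold of 0.365 (SE 0.40, 95% interval −2.52 to −0.39). Its unadjusted limma p was 0.0181 and its adjusted p was 0.16, which misses the threshold. Under 13 alternative settings the change stayed between −1.78 and −1.12, both values with a DMSO library left out. The filters on low values, the replicate block and both lines in 1 fit leave the change as it was by construction. With no library left out, the adjusted p lay between 0.0615 and 0.264. In HCC4006 the change was −0.34 (SE 0.27, 95% interval −1.11 to 0.43, adjusted p = 0.519). The difference of the changes was −1.11 (adjusted p = 0.229).

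CDKN1B (chr12:12867991-12875305), whose protein accumulates in many cells that leave the cycle, had 419 and 389.9 FPKM in HCC827 Gef, against 374 and 261 FPKM in HCC827 DMSO. It had 153 and 172 FPKM in HCC4006 Gef, against 373 and 231 FPKM in HCC4006 DMSO. Both Gef libraries were higher in HCC827 and lower in HCC4006. The log2 change was 0.37 in HCC827 (SE 0.31, 95% interval −0.46 to 1.20, limma adjusted p = 0.574) and −0.85 in HCC4006 (SE 0.31, 95% interval −1.75 to 0.04, adjusted p = 0.234). The difference of the changes was 1.23 (SE 0.43, 95% interval 0.17 to 2.29, limma adjusted p = 0.144), and 1.57 without HCC4006 DMSO library B (adjusted p = 0.0494). CDKN1B exceeded CDKN1A by 10.7 and 14.8 times in HCC827 Gef, against 3.33 and 3.68 times in HCC827 DMSO. In HCC4006 the ratio was 0.882 and 0.764 in Gef, against 1.29 and 1.06 in DMSO. The sum of both genes was 458 and 416 FPKM in HCC827 Gef, against 486 and 331 FPKM in HCC827 DMSO, with overlap. It was 326 and 398 FPKM in HCC4006 Gef, against 662 and 448 FPKM in HCC4006 DMSO, with both Gef libraries lower.

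**Figure D4:**
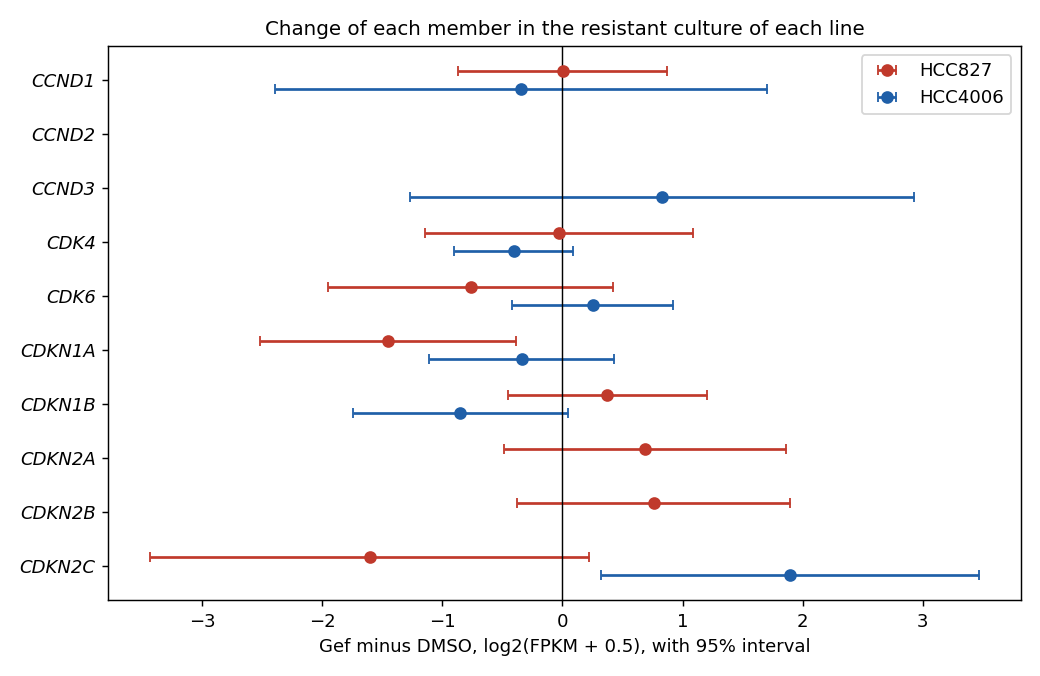
Change of each member, Gef minus DMSO on the log2(FPKM + 0.5) scale, with its 95% interval from limma, in HCC827 (red) and HCC4006 (blue). CDKN2C has intervals on opposite sides for most of their length, at −1.61 in HCC827 and 1.90 in HCC4006, and rows with a group listed at 0 are left without a point.

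The kinases outnumbered the D cyclins in transcripts per length by 6.26 and 14.5 times in HCC827 Gef and by 10.5 and 12.5 times in HCC827 DMSO. In HCC827 DMSO the D cyclin sum is CCND1 alone, since CCND3 is listed at 0 there, which may be a failed estimate. In HCC4006 the ratio was 0.654 and 0.632 in Gef and 1.37 and 0.363 in DMSO. The groups overlapped within each line, and the lines did not overlap. A ratio within a library does not depend on the scale of its table.

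Downstream of the D cyclins, 0 of 15 G1/S cyclins, kinases and activators were called by limma in either line, and 0 were at an unadjusted p below 0.05 in either. Their median log2 change was −0.33 in HCC827 and 0.42 in HCC4006, beside −0.04 and −0.01 over all rows. CDK2, the kinase that CDKN1A and CDKN1B block, had 109 and 256 FPKM in HCC827 Gef, 194 and 222 in HCC827 DMSO, 156 and 186 in HCC4006 Gef, and 79.8 and 408 in HCC4006 DMSO. CCNE1, its cyclin at the start of S phase, had 49.4 and 108 FPKM in HCC827 Gef and 65.0 and 42.0 in HCC827 DMSO. In HCC4006, CCNE1 had 74.9 and 70.6 FPKM in Gef and 24.5 and 61.7 in DMSO, so that both Gef libraries were higher there. Among the 16 E2F target genes, CDC45, a replication helicase factor, was called higher in each line, and no other target was. CDC45 had 118 and 298 FPKM in HCC827 Gef and 334 and 335 FPKM in HCC4006 Gef, and was listed at 0 in both DMSO groups. The median change of the targets was −0.57 in HCC827 and 0.21 in HCC4006.

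Of 11 pocket proteins, other CDK inhibitors and repressor E2Fs, RB1 and LIN54 were called in both lines, each against a group listed at 0, and the list's median change was −0.12 in HCC827 and 0.08 in HCC4006. RB1, the target of CDK4 and CDK6, had 100.1 and 65.9 FPKM in HCC827 Gef and 169.7 and 145 FPKM in HCC4006 Gef, and was listed at 0 in both DMSO groups. LIN54, a DNA-binding subunit of the DREAM complex that represses cell cycle genes, was listed at 0 in HCC827 Gef, against 88.0 and 112 FPKM in HCC827 DMSO. It had 115 and 99.7 FPKM in HCC4006 Gef and was listed at 0 in HCC4006 DMSO.

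Of a list of genes of the response to DNA damage and stress, 17 passed the filter. MDM2, a ubiquitin ligase whose row is joined with another gene, was called higher in both lines. That row had 250.1 and 309.8 FPKM in HCC827 Gef and 360.4 and 193 FPKM in HCC4006 Gef, against DMSO groups listed at 0. TP53I3, an oxidoreductase, was called higher in HCC827, with 63.0 and 112 FPKM in Gef against a DMSO group listed at 0. In HCC4006, TP53I3 had 101 and 95.2 FPKM in Gef, against 294 and 186 FPKM in DMSO. That log2 change of −1.25 was not called (limma adjusted p = 0.112). DDB2, a DNA damage recognition factor, was the only pathway list row called within a line that had every library of that line above 0. It fell in HCC4006, with 74.8 and 65.8 FPKM in Gef, against 197 and 219.6 FPKM in DMSO. Its log2 change was −1.56 (limma adjusted p = 0.0268), and it was not called in a fit limited to rows above 0 in every library. The list's median change was 0.18 in HCC827 and −0.52 in HCC4006.

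Of 15 regulators of the D cyclins, p27 and the INK4 genes, limma called 1 row higher and 1 lower in HCC827 and 0 in HCC4006, where 1 was at an unadjusted p below 0.05. The median changes were −0.28 and 0.01. AMBRA1, which directs the degradation of D cyclins, was listed at 0 in HCC827 Gef, against 151 and 144 FPKM in HCC827 DMSO, and had 102 and 111 FPKM in HCC4006 Gef, against 215 and 183 FPKM in HCC4006 DMSO. The row that holds SKP1, a ubiquitin ligase subunit, joined with CDKL3 and PPP2CA, had 3184 and 4247 FPKM in HCC827 Gef and was listed at 0 in the other 6 libraries. ETS2, a transcription factor that can activate CDKN2A, was named after its values were seen. It had 47.0 and 40.5 FPKM in HCC827 Gef, against 106 and 131 FPKM in HCC827 DMSO, and 178 and 235 FPKM in HCC4006 Gef, against 181 and 165 FPKM in HCC4006 DMSO. Neither change was called, at −1.43 in HCC827 (limma adjusted p = 0.0818) and 0.24 in HCC4006 (adjusted p = 0.585). Their difference of −1.67 was called (limma adjusted p = 0.0274), but not in a fit limited to rows above 0 in every library. MYC, which activates CCND2 and CDK4 in several cell types, had 868 and 769 FPKM in HCC827 Gef and 1022 and 1126 in HCC827 DMSO. In HCC4006, MYC had 111 and 78.9 FPKM in Gef and 65.6 and 43.6 in DMSO, and neither change was called.

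Markers of the tissue were checked in the same libraries. Of 6 lung epithelial markers used, 0 were called in HCC827 by limma, with 1 at an unadjusted p below 0.05, and 4 fell in HCC4006 (EPCAM, KRT19, CDH1 and NKX2-1). The row of NKX2-1 is joined with another gene. The median log2 change was 0.10 in HCC827 and −2.89 in HCC4006. Their sum was 1802 and 1629 FPKM in HCC4006 Gef, against 9506 and 15844 FPKM in HCC4006 DMSO. CDH1, the junction protein E-cadherin, had 3.03 and 3.29 FPKM in HCC4006 Gef, against 1518 and 945 FPKM in HCC4006 DMSO. Of 11 markers of immune cells, endothelium and fibroblasts, 0 were called by limma in either line, and 1 in each was at an unadjusted p below 0.05. Only 1 passed the filter in HCC827, COL1A1 with a log2 change of −1.55, and 3 in HCC4006, with a median of −0.14. PTPRC, CD3E, CDH5 and COL3A1 were listed at 0 in all 8 libraries. The 11 markers summed to 13.8 to 122 FPKM in a library, nearly all of it COL1A1. In bulk RNA, fewer cells of a kind and less RNA per cell cannot be told apart.

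For each of the 6 members above 0 in all 8 libraries, the 2 rows with the most similar pattern were taken by Pearson r of log2(FPKM + 0.5) over the 8 libraries, among 14798 rows. CCND1 was nearest to ALS2CR10 (r = 0.956) and EIF4EBP2 (r = 0.918), with 1 row above 0.95. CDK4 was nearest to APOC1 (r = 0.995) and MSL3L2 (r = 0.994), with 115 rows above 0.95. The nearest rows were KDM1B and C10orf46 for CDK6, SFXN3 and POLDIP3 for CDKN1A, TTC35 and NOTCH3 for CDKN1B, and RBMX and POLG for CDKN2C, each with r between 0.978 and 0.987. The 8 points share 2 lines and 4 groups, so these values describe the libraries and carry no p.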

How the data were processed

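The authors deposited FPKM per gene, with a table of 48405 rows for each of the 2 lines. TopHat 1.4.1, Cufflinks 1.3.0, Cuffdiff and the build hg19 are listed in the submitters' processing notes. Their options and the gene annotation are not stated there. Per the labels' protocols, libraries came from TruSeq RNA v2 on miRNeasy RNA. No counts were used, so depth is unknown and no counting interval or floor can be given. Column letters A and B were not tied to the labels' replicate numbers. There were 0 per-sample columns outside the 8 libraries, and 23 names turned into dates were not used by name.

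Values were tested as log2(FPKM + 0.5) with limma 3.58.1 in R 4.3.3 (lmFit, eBayes with a trend), over rows with a mean of at least 0.5 FPKM in the fit, each line alone, and as an interaction over all 8 libraries. The Benjamini-Hochberg adjustment ran over every row of a fit, and a row was called below 0.05. Fold changes on this scale understate changes of low genes. The procedure was tested on simulated data, modelled on rows above 0 in every library of a line. All simulated rows were given the same spread. The changes put in were larger than that of any member within a line, apart from CCND3 in HCC827. Rows with a whole group listed at 0, such as CCND3 in HCC827, were not covered by the simulation, nor were smaller changes or uneven spreads. Other values were computed in Python 3.11.15 with pandas 2.3.3 and numpy 2.4.6.

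The members and the 9 gene lists (113 memberships, 111 found) were chosen with earlier results of these data known. Genes named were all members, each list's called rows in a line (with more than 4, the 2 largest rises and falls), RB1, E2F1, CDK2, CCNE1, MTAP and CDKN2B-AS1, and the 2 rows most like each member. MYC, ETS2, CTTN and other neighbours were named after their values were seen. Alternatives covered the pseudocount (0.1 and 5), the filter on low values, scaling, a replicate block, both lines in 1 fit and leaving out each library. The percentiles, the crossed block and the CDK4 neighbours were added after seeing the data. PECAM1 and KRT18 were found on another chromosome only and not used. Results for some other genes are not reported here.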

Additional observations from a re-analysis of the deposited data

Results flagged for a closer look

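The change under gefitinib resistance differed between HCC827 and HCC4006 for CCND3 (limma interaction, adjusted p = 0.00201), where both HCC827 DMSO libraries were listed at 0 and the 2 HCC4006 groups overlapped. The same test called 6 rows of the pathway lists, and 0 when the fit was limited to rows above 0 in every library. ETS2 (adjusted p = 0.0274) was above 0 in all 8 libraries, and the other 5 were listed at 0 in whole groups, namely LIN54 (adjusted p = 1.18e-05), TP53I3 (adjusted p = 0.000125), AMBRA1 (adjusted p = 3.81e-05), SKP1 in its joined row (adjusted p = 2.01e-05) and ANO1 in its joined row (adjusted p = 0.0418). Of the lung epithelial markers, CDH1 (adjusted p = 8.61e-05), KRT19 (adjusted p = 0.00596), EPCAM (adjusted p = 0.00623) and NKX2-1 in its joined row (adjusted p = 0.0347) differed between the lines, with lower values in HCC4006 Gef than in HCC4006 DMSO. With 2 libraries a group, the formal check for a single outlying library, which needs at least 4, could not be run.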

How the results depend on the processing

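Of 325 recomputed changes of single members, 307 kept their direction and their side of the threshold, 2 lost the call, 5 gained one and 11 turned. The filters on low values, the replicate block and both lines in 1 fit leave a change itself as it was by construction. They can move only its adjusted p. In HCC827, CCND1 was −0.076 with quantile normalization and −0.29 to 0.29 with a library left out. CDK4 there was 0.085 with median scaling and −0.43 to 0.37 with a library left out. In HCC4006, leaving out a library gave −1.31 to 0.61 for CCND1 and −0.15 to 1.81 for CCND3. The difference between the lines was −0.61 to 1.31 for CCND1 and −0.022 to 0.77 for CDK4 with a library left out, and −0.20 for CDK4 with quantile normalization. Quantile normalization moved the median of all rows to −0.24 in HCC827 and −0.19 in HCC4006.

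The count of calls depends on rows listed at 0. In the main fits, 159 rows called in HCC827 and 499 called in HCC4006 were above 0 in every library of the line. Counts given below for rows above 0 in every library, here and in the next paragraph, come instead from new fits limited to those rows. Such a count is therefore not a share of the main calls. DDB2 in HCC4006 and ETS2 for the difference were above 0 in every library and called in the main fits, but not in the new ones. In HCC827, 1314 rows were called, 462 with no filter on low values, 19 among rows above 0 in every library, and 0 to 1520 with a library left out. Both values of 0 came from leaving out a DMSO library, with 2768 and 2574 rows at an unadjusted p below 0.05. In HCC4006, 1860 rows were called, 831 with no filter, 88 among rows above 0 in every library, and 1394 to 3565 with a library left out. For the difference, 2501 rows were called, 212 among rows above 0 in every library, and 1666 to 3857 with a library left out. The cause of the drop with no filter was not tested.

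Of the members, 1 was called in HCC827, 0 among rows above 0 in every library, and 0 to 1 with a library left out. In HCC4006, 0 were called and 0 to 2 with a library left out. For the difference, 1 was called, 0 among rows above 0 in every library, and 1 to 2 with a library left out. Of the pathway list rows, 7 were called in HCC827, 4 with no filter, 0 among rows above 0 in every library and 0 to 7 with a library left out. In HCC4006, 6 were called, 3 with no filter, 0 among rows above 0 in every library and 4 to 22 with a library left out. For the difference, 6 were called, 0 among rows above 0 in every library and 4 to 16 with a library left out.

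With a replicate block by column letter, 1485 rows were called in HCC827, 1400 in HCC4006 and 1687 for the difference, and the members called stayed at 1, 0 and 1. Deviations of libraries with the same letter correlated at 0.207 in HCC827 and −0.124 in HCC4006, over 13275 and 13552 rows, so the letters are not shown to pair libraries. A crossed replicate block in HCC4006, added after seeing the data, called 1344 rows. Each member had a single row, so summing rows changed no value.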
